A study of Mus musculus with 8 samples.

Results

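Collagens and laminins are the main structural proteins of the extracellular matrix, and the genes described here are all those of the Mouse WG-6 v2.0 array whose symbol names a collagen alpha chain or a laminin alpha, beta or gamma chain. The symbol rule found 50 genes, represented by 110 of the 45281 probes on the array. Of these, 54 probes (49.1%) for 38 genes were expressed (detected on 1 or more of the arrays at p under 0.01), against 42.2% of all probes. RNA came from whole testes of male C57BL/6 mice at 16 dpp, 4 Tex19.1-/- animals and 4 controls, with 1 array for each animal. The Tex19.1-/- line had been backcrossed to C57BL/6 to reduce genetic variation, and how much of another background remained was not analysed here. Both copies of Tex19.1 are lost in every cell of the animal. The 4 controls are all labelled Tex19.1+/-, so that the controls themselves carry 1 mutant allele. The question for these genes was whether matrix transcripts of the tubule wall and the interstitium differed in testes that lack Tex19.1, a gene used by germ cells.

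In a seminiferous tubule the germ cells and Sertoli cells sit on a basement membrane, a thin sheet in which type IV collagen and laminin networks are tied together by nidogen and perlecan. Sertoli cells and the contractile peritubular myoid cells build this sheet together, and fibrillar collagens and type VI collagen lie outside it, in the myoid layer and between the tubules. A laminin is a trimer of 1 alpha, 1 beta and 1 gamma chain, and a collagen is a triple helix of alpha chains, so the products of several of these genes have to be made together.

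The values of the targeted gene fit the labels: the Tex19.1 probe was detected in 0 of 4 Tex19.1-/- testes and in 4 of 4 control testes, with a log2 change of -2.59 (standard error 0.13), or at least 4.33-fold lower; its position relative to the deletion was not analysed here. Over all 19089 expressed probes, limma with Benjamini-Hochberg adjustment called 311 probes lower (1.63%) and 27 higher (0.141%) in Tex19.1-/- testes at an adjusted p of at most 0.01. The arrays detected 13720 to 14668 probes in Tex19.1-/- testes and 14152 to 15876 in control testes. Marker genes of pachytene spermatocytes, the most advanced germ cells at this age, were lower: 6 of 9 expressed markers were called, the median log2 change was -2.09, and their mean log2 signal was 7.10 to 8.09 in Tex19.1-/- testes and 9.06 to 9.96 in control testes. With arrays scaled to a common median, or with signals under 1 set to 1, 0 of these markers were called. With an intensity trend and a robust prior set together, 2 were called. In whole testes, fewer cells of a type and less RNA for each cell cannot be told apart, and the part of the pachytene markers' fall in the values below was not tested.

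Among the 54 collagen and laminin probes, 1 was called lower, against a background of 1.63%, and 0 were called higher, against 0.141%. The probe called lower was that of Col16a1. At an unadjusted p under 0.05, 3 probes were lower (Col16a1, Col9a3 and Col2a1), against 7.93% of all expressed probes, and 6 were higher (Lama5, Col6a1, Col18a1, Col4a5, Col5a1 and Col1a2), against 5.87%. With the replicate number as a block, 11 were higher at this unadjusted threshold and 0 of them at the adjusted one, while the share of all expressed probes higher at the unadjusted threshold was 8.75% in the same fit. Every Tex19.1-/- animal lay below every control for 2 member probes, against 6.06% of all expressed probes, and above every control for 3, against 4.18%. Most of the other differences were small, with 44 of the 54 log2 changes within 0.25 of 0. Over all 19089 expressed probes, 16241 were within this range. All member changes lay between -0.58 and 0.37. The signs were uneven, with 39 probes higher and 15 lower in Tex19.1-/- testes, 72.2% on the higher side against 56.1% of all expressed probes. The median log2 change was 0.09 over the members and 0.02 over all expressed probes. This difference of 0.066 between the medians was 0.022 without Tex19.1-/- animal 2 and 0.105 without Tex19.1-/- animal 3. Over the other settings it lay between 0.015, without a detection filter, and 0.157, with signals under 1 set to 1.

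**Figure D1:**
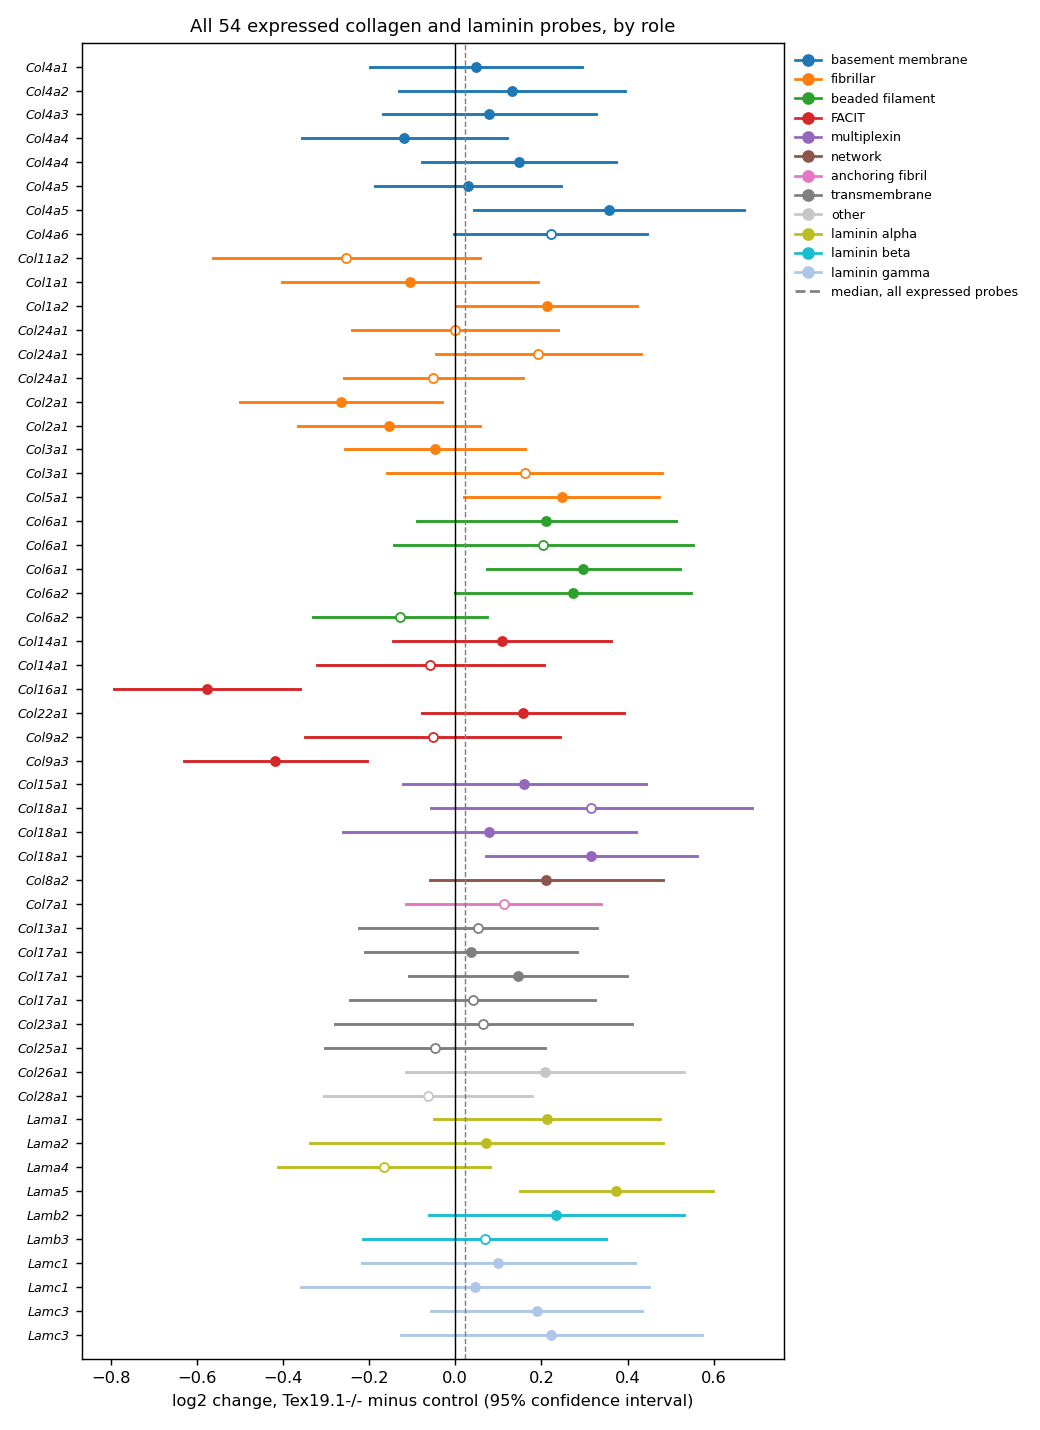
Log2 change (Tex19.1-/- minus control) of each of the 54 expressed collagen and laminin probes, on the horizontal axis, with its 95% confidence interval from limma. Probes are ordered and coloured by role, filled points were detected in every array of at least 1 genotype, and the dashed line is the median of all expressed probes, 0.02; Col16a1 lies farthest from 0, at -0.58, and 39 of 54 points lie to the right of 0.

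Col16a1 on chromosome 4 encodes the alpha chain of type XVI collagen, one of the fibril-associated collagens (FACIT), which sit on the surface of other fibrils. Its only probe (ILMN_1248099) was detected in all 8 testes. The log2 signals were 7.04, 7.26, 7.10 and 7.25 in Tex19.1-/- animals 1 to 4, and 7.69, 7.84, 7.80 and 7.63 in controls 1 to 4. All 4 Tex19.1-/- animals were below the lowest control, and the spread within a genotype was small beside the gap (SD 0.11 in Tex19.1-/- and 0.10 in control testes). The log2 change was -0.58 with a standard error of 0.10 and a 95% confidence interval of -0.79 to -0.36 (limma, adjusted p = 0.00479, n = 4 each). The direction was the same in all 19 alternative settings, but the call was kept in 11 of them. It was lost when arrays were scaled to a common median (-0.38, adjusted p = 0.60), when signals under 1 were set to 1 (-0.80, adjusted p = 0.040), and on leaving out Tex19.1-/- animal 1, 3 or 4 (adjusted p of 0.023, 0.018 and 0.015) or control 1, 2 or 3 (0.013, 0.012 and 0.020). Leaving out Tex19.1-/- animal 2 or control 4 kept it.

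The start of Col16a1 is shown because it is the only member called. The RefSeq window covers 250 bases before to 50 bases after the annotated start, at chr4:130047590-130047889 on the plus strand of GRCm38.p6, and capitals mark CCAAT and GGGCGG boxes on either strand (ATTGG and CCGCCC on the other strand).
Col16a1 promoter window: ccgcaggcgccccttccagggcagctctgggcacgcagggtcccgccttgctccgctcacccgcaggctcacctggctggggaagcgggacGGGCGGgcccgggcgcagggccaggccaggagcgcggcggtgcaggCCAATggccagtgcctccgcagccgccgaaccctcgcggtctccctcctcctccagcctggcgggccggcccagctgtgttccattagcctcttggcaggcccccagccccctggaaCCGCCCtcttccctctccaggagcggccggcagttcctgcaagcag
It holds 1 CCAAT and 2 GGGCGG matches and no TATA box (TATAAA, either strand), and 74.3% of its bases are G or C. Windows were found by symbol for 38 of the 50 member genes, taking the first listed for each, while the background counts every listed window. GGGCGG was present in 65.8% of these and in 35.7% of all 32851 windows, CCAAT in 34.2% against 37.4%, and the TATA box in 13.2% against 13.6%. The median G and C content was 60.2% in member windows and 52.7% in all windows, so that the G and C rich box was counted in windows that are richer in G and C.

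Col9a3, which encodes 1 of the 3 chains of type IX collagen, another fibril-associated collagen best known from cartilage, had the next largest t value. Its probe ILMN_2733257 was detected in 0 of 4 Tex19.1-/- testes and 4 of 4 control testes. The log2 signals were 5.73, 5.96, 5.90 and 5.85 in Tex19.1-/- animals, and 6.34, 6.17, 6.37 and 6.23 in controls, again without overlap. Since the signal in Tex19.1-/- testes was not above background, the difference is a limit, at least 1.19-fold lower (fitted log2 change -0.42, standard error 0.10, adjusted p = 0.033). This missed the threshold, and passed it with the neqc background correction (adjusted p = 0.00945) and with array weights (0.0088). With signals under 1 set to 1, the fitted log2 change was -1.52 (adjusted p = 0.0605). The other Col9a3 probes on the array were not expressed.

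The remaining fibril-associated members did not stand out. Col22a1, a collagen of tissue junctions, had a log2 change of 0.16. Col14a1, which binds type I collagen fibrils, had 1 probe at 0.11 and another, detected in 1 array, at -0.06, and Col9a2, a partner chain of Col9a3, was at -0.05 with detection in 3 of 8 arrays. Over the 6 probes of this role the median was -0.06, and Col19a1 and Col9a1 were not expressed.

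**Figure D2:**
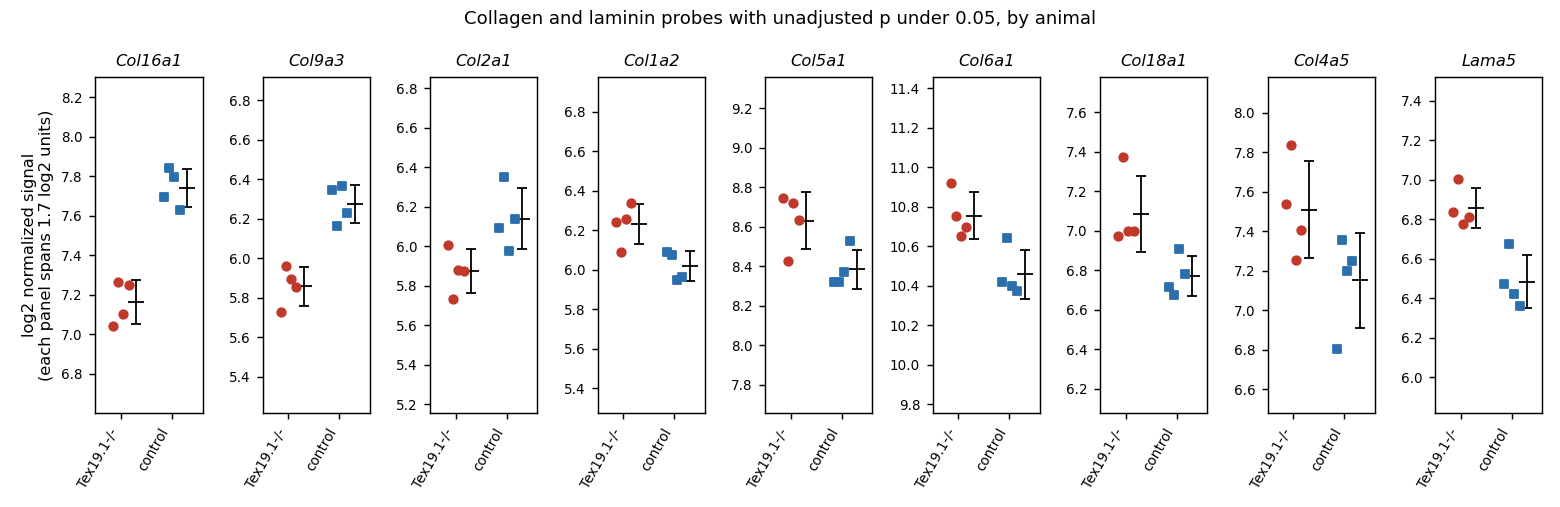
Log2 normalized signal (vertical axis, each panel spanning 1.7 log2 units) of the 9 probes with an unadjusted p under 0.05, by animal, with Tex19.1-/- testes as circles on the left and control testes as squares on the right; bars give the mean and SD over 4 animals. The genotypes do not overlap for Col16a1 and Col9a3 (lower in Tex19.1-/- testes) or for Col6a1, Col18a1 and Lama5 (higher).

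Type IV collagen, the network of the basement membrane, was represented by 8 expressed probes for all 6 of its chains, and 0 of the 8 were called. Col4a1 and Col4a2 encode the chains of the ubiquitous trimer. Col4a1 read 10.46, 10.79, 10.58 and 10.53 in Tex19.1-/- animals and 10.58, 10.40, 10.75 and 10.42 in controls. Col4a2 read 10.08, 10.38, 9.97 and 9.98 in Tex19.1-/- animals and 9.94, 10.15, 10.02 and 9.77 in controls. Both genes overlapped between genotypes, with log2 changes of 0.05 (95% confidence interval -0.20 to 0.29) and 0.13 (-0.13 to 0.39). With arrays scaled to a common median these were 0.40 and 0.45 (adjusted p of 0.62 and 0.60), a setting in which the median of all expressed probes was 0.14. The sign for Col4a1 turned to -0.042 with array weights and to -0.020 without Tex19.1-/- animal 2.

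These 2 genes lie head to head on chromosome 8, and the stretch that their RefSeq promoter windows share is shown because it belongs to both. The windows overlap by 78 bases at chr8:11312777-11312854 (GRCm38.p6, printed on the plus strand, along which Col4a2 is read). Capitals mark the only GGGCGG box in it.
Col4a1 and Col4a2 shared window: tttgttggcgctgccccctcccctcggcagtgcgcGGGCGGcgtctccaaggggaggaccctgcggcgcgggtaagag
Other neighbouring pairs with expressed probes on both sides were Col4a3 and Col4a4 on chromosome 1, Col4a5 and Col4a6 on the X chromosome, and Col6a1 and Col6a2 on chromosome 10.

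Col4a3 and Col4a4 encode chains of the network best known from the kidney glomerulus. Col4a3 had a log2 change of 0.08, and the 2 expressed Col4a4 probes differed in sign, at 0.15 and -0.12. Of the X-linked chains, 1 Col4a5 probe passed the unadjusted threshold. Col4a5 (ILMN_2734755) read 7.54, 7.84, 7.25 and 7.41 in Tex19.1-/- animals and 6.80, 7.36, 7.20 and 7.25 in controls. Its genotypes overlapped, with control 1 low and Tex19.1-/- animal 2 high, and the log2 change was 0.36 (standard error 0.15, adjusted p = 0.28). The second Col4a5 probe, also detected in all 8 arrays, stood at 0.03. Col4a6 was detected in 3 of 8 arrays and had a log2 change of 0.22 (adjusted p = 0.37). Beside these values, 465 of the 544 expressed probes of X-linked genes (85.5%) were higher in Tex19.1-/- testes, with a median log2 change of 0.16 and 12 called higher; its part in the Col4a5 and Col4a6 values was not tested.

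Of 10 expressed laminin probes 9 were on the higher side in Tex19.1-/- testes, with a median log2 change of 0.14, and 0 called. Lama5 encodes the alpha chain of the laminins found in many mature basement membranes. Its probe ILMN_2640248 read 6.84, 7.01, 6.77 and 6.81 in Tex19.1-/- animals, and 6.47, 6.67, 6.42 and 6.36 in controls. The lowest Tex19.1-/- animal was above the highest control, at a log2 change of 0.37 (standard error 0.10, 95% confidence interval 0.15 to 0.60, adjusted p = 0.078). It was the member with the largest t value on the higher side, and it missed the adjusted threshold here and in all 19 alternative settings.

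Lama1, the alpha chain of the embryonic laminin that Sertoli cells keep in the tubule wall, read 9.12, 9.23, 9.48 and 9.37 in Tex19.1-/- animals and 8.96, 8.88, 9.25 and 9.27 in controls, a log2 change of 0.21 (adjusted p = 0.48). Lama2, the alpha chain of muscle basement membranes, varied widely within each genotype, at 7.06, 7.35, 6.59 and 6.94 in Tex19.1-/- animals and 7.17, 6.77, 7.28 and 6.44 in controls (SD 0.31 in Tex19.1-/- and 0.39 in control testes). The difference in its means, 0.07, was smaller than either SD, and its sign turned with array weights and without Tex19.1-/- animal 2 or control 4. Lama4, the alpha chain of vessel walls, was detected in 1 control array and in none of the Tex19.1-/- arrays, and was the only laminin probe on the lower side (-0.16). Lamb2, a beta chain of mature basement membranes, read 9.19, 9.87, 9.69 and 9.77 in Tex19.1-/- animals and 9.27, 9.46, 9.39 and 9.45 in controls. Tex19.1-/- animal 1 was the lowest of all 8 and the other Tex19.1-/- animals the highest, so the log2 change of 0.24 came with a confidence interval from -0.06 to 0.53 (adjusted p = 0.49). Without Tex19.1-/- animal 1 it was 0.38 (adjusted p = 0.11), and without Tex19.1-/- animal 2 it was 0.15. Lamb3, a chain of epithelial laminin, was detected in 1 array, and Lamb1 was not expressed.

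Lamc1, the gamma chain shared by most laminins, and Lamc3 each had 2 expressed probes, all detected in 8 arrays. Lamc1 (ILMN_2974798) read 7.82, 8.42, 7.61 and 7.56 in Tex19.1-/- animals and 7.80, 8.21, 7.64 and 7.57 in controls. Animal 2 was the highest in both genotypes, the difference between means was 0.05 (95% confidence interval -0.36 to 0.45), and its sign turned to -0.14 without Tex19.1-/- animal 2, and also without control 3 or control 4. The other Lamc1 probe showed the same high animals and a log2 change of 0.10. The Lamc3 probes had log2 changes of 0.22 and 0.19 (adjusted p of 0.60 and 0.51).

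**Figure D3:**
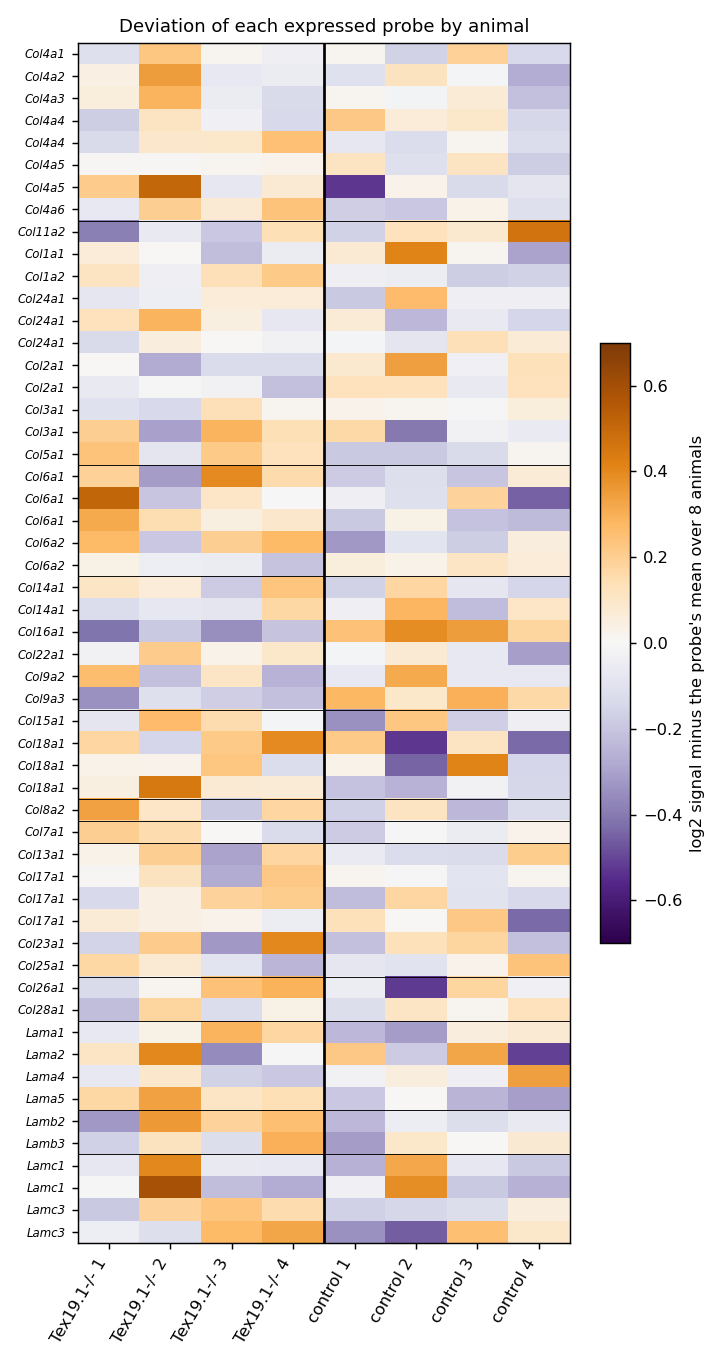
Log2 signal of each of the 54 expressed probes (vertical axis, ordered by role with thin lines between roles) minus its mean over 8 animals, with Tex19.1-/- animals left of the thick line and controls right of it; orange is above and purple below the mean of the probe. Rows for Lamc1 show animal 2 high in both genotypes, Tex19.1-/- animal 2 was the highest of 8 for 14 probes, and Col16a1 and Col9a3 are purple in 4 of 4 Tex19.1-/- animals.

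Fibrillar collagens, the chains of the banded fibres of interstitium and bone, moved in no common direction: 5 of 11 expressed probes were higher and 6 lower, with a median log2 change of -0.05 and 0 called. Col1a1, a chain of type I collagen, read 8.58, 8.51, 8.29 and 8.46 in Tex19.1-/- animals and 8.59, 8.92, 8.53 and 8.21 in controls. Its log2 change was -0.10 (95% confidence interval -0.40 to 0.19), with a change of sign to 0.16 when arrays were scaled to a common median and to 0.016 without control 2. Col1a2, the other chain of type I collagen, stood at 0.21 (adjusted p = 0.35), at 6.24, 6.09, 6.26 and 6.34 in Tex19.1-/- animals and 6.09, 6.08, 5.95 and 5.96 in controls. The Col1a2 probe was detected in 4 of 4 Tex19.1-/- and 3 of 4 control testes. The fitted signs of the 2 chains of this one fibre were opposite, but the Col1a1 interval spans 0 and neither was called. Col5a1, which nucleates type I fibrils, had a log2 change of 0.25 (adjusted p = 0.31), at 8.75, 8.42, 8.72 and 8.63 in Tex19.1-/- animals and 8.32, 8.32, 8.37 and 8.53 in controls. Tex19.1-/- animal 2 and control 4 crossed.

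Col2a1, the fibrillar collagen of cartilage, had 2 expressed probes, each detected in 1 of 4 Tex19.1-/- testes and 4 of 4 control testes. The first (ILMN_1246054) read 6.01, 5.73, 5.88 and 5.88 in Tex19.1-/- animals and 6.09, 6.35, 5.98 and 6.14 in controls. Its log2 change was -0.27 (adjusted p = 0.28), with Tex19.1-/- animal 1 above control 3, and that of the other probe was -0.15. Col3a1, the reticular fibre collagen, had a probe detected in 5 of 8 arrays at -0.05 and another in 3 of 8 arrays at 0.16. Col11a2 and the 3 expressed Col24a1 probes were each detected in 1 array, with log2 changes from -0.25 to 0.19. Col11a1, Col27a1, Col5a2 and Col5a3 were not expressed.

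Type VI collagen forms beaded filaments next to basement membranes. Col6a1 (ILMN_2768087) read 10.92, 10.75, 10.65 and 10.70 in Tex19.1-/- animals, and 10.42, 10.64, 10.40 and 10.37 in controls. The genotypes did not overlap, though Tex19.1-/- animal 3 and control 2 were only just apart, and the log2 change was 0.30 (standard error 0.10, adjusted p = 0.19). The other Col6a1 probe detected in all 8 arrays (ILMN_1259388) gave 0.21, with Tex19.1-/- animal 2 the lowest of all, and a probe detected in 1 array gave 0.20. Col6a2, the neighbouring gene, read 8.66, 8.19, 8.59 and 8.66 in Tex19.1-/- animals and 8.06, 8.30, 8.21 and 8.44 in controls, a log2 change of 0.27 (adjusted p = 0.36) with Tex19.1-/- animal 2 among the controls. Its second probe, detected in 1 array, was at -0.13, and Col6a4, Col6a5 and Col6a6 were not expressed. No probe carried the symbol Col6a3, another chain of type VI collagen, so that chain was not measured here.

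The multiplexins Col15a1 and Col18a1 are proteoglycans of basement membranes, and Col18a1 carries the fragment known as endostatin. The 4 expressed probes all lay on the higher side, with a median log2 change of 0.24. Col18a1 (ILMN_2937542) read 6.98, 7.37, 7.0 and 7.0 in Tex19.1-/- animals, and 6.72, 6.68, 6.91 and 6.78 in controls. The genotypes did not overlap (log2 change 0.32, standard error 0.11, adjusted p = 0.20), and animal 2 was far above the other Tex19.1-/- animals. A second Col18a1 probe detected in all 8 arrays (ILMN_2735184) differed by 0.08, less than the SD of 0.36 among controls, and its sign turned without control 2 and with array weights. The third, detected in 2 of 8 arrays, was at 0.32 with an interval from -0.06 to 0.69. Col15a1 had a log2 change of 0.16.

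Other roles had few members. Col8a2, a collagen of hexagonal networks, read 6.93, 6.69, 6.40 and 6.76 in Tex19.1-/- animals and 6.42, 6.70, 6.35 and 6.46 in controls (log2 change 0.21, adjusted p = 0.50). Col7a1, which forms the anchoring fibrils of skin, was at 0.11 with detection in 6 of 8 arrays. The transmembrane collagens Col13a1, Col17a1, Col23a1 and Col25a1 had 6 expressed probes between -0.05 and 0.15, and of these 1 Col17a1 probe was detected in all 8 arrays. Col26a1 stood at 0.21 and Col28a1 at -0.06, and Col10a1 and Col8a1 were not expressed.

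Detection limits these readings. Of the 54 probes, 29 were detected in all 8 arrays, 6 more in every array of 1 genotype, and 12 in 1 array only. Taking only the 35 probes detected in every array of a genotype, 28 were higher in Tex19.1-/- testes and the median log2 change was 0.15, against 0.04 over all 13128 probes that pass this filter. In all, 12 genes had several expressed probes, and in 5 of them the probes differed in sign.

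**Figure D4:**
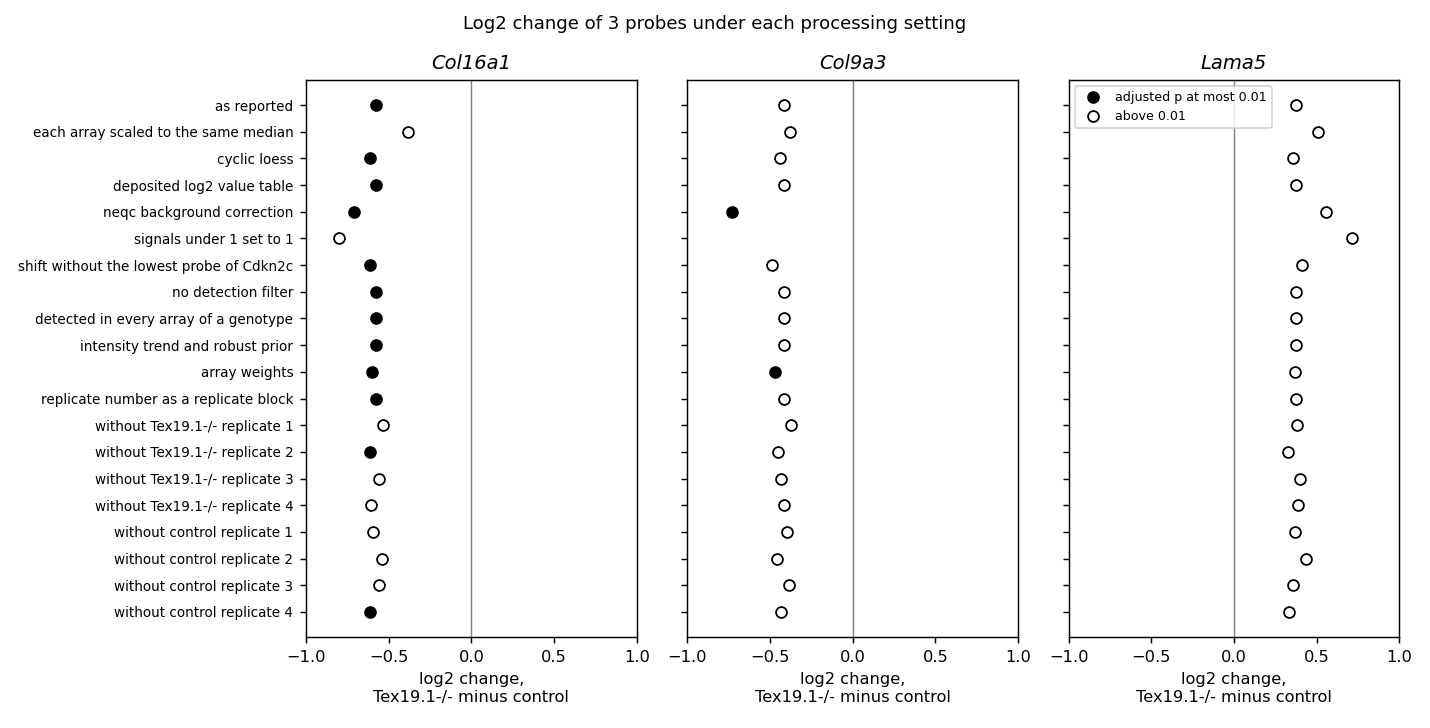
Log2 change (Tex19.1-/- minus control, horizontal axis) of the Col16a1, Col9a3 and Lama5 probes as reported and under 19 alternative settings (vertical axis). The Col9a3 value with signals under 1 set to 1, -1.52, lies beyond the axis and is not drawn. Filled points have an adjusted p of at most 0.01: Col16a1 was called in 11 of 19 alternatives, Col9a3 in 2 and Lama5 in 0.

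Other genes of the matrix were set beside the collagens and laminins in 5 lists, which together held 68 distinct expressed genes, each read by its probe with the highest mean signal. Of the 68, 0 were called in either direction. At an unadjusted p under 0.05, 7 were higher (10.3%, against 5.87% of all expressed probes) and 0 lower (against 7.93%). That background is not matched to genes read by their brightest probe. Over the 13128 probes detected in every array of a genotype, 8.13% were higher at this threshold. On the higher side lay 57 of the 68 (83.8%, against 56.1% of all expressed probes), with a median log2 change of 0.14. Among the 11 basement membrane partners, Nid2, a nidogen that bridges laminin and type IV collagen, had the largest value, 0.34 (adjusted p = 0.20), while Nid1 stood at 0.04 and Hspg2, which encodes perlecan, at 0.16. Of 9 receptors, Itga11, an integrin subunit for fibrillar collagen, was at 0.27 (adjusted p = 0.28) and Itgb1, the common integrin beta chain, at 0.14. Of 20 genes of collagen synthesis and crosslinking, P3h1, a collagen prolyl hydroxylase, was at 0.31 (adjusted p = 0.15), Serpinh1, the collagen chaperone, at 0.18 and Lox, which crosslinks fibrils, at 0.28, while 5 of the 20 lay on the lower side, among them P3h3, of the same enzyme family as P3h1, at -0.23 (adjusted p = 0.40). Of 14 genes of matrix turnover, the metalloproteinase gene Mmp11 read 7.49, 7.60, 7.55 and 7.62 in Tex19.1-/- animals and 7.14, 7.47, 7.12 and 7.09 in controls, without overlap, at 0.36 (adjusted p = 0.11). Of 15 other fibrous matrix genes, Thbs2 stood at 0.36, the microfibril gene Mfap4 at 0.35 (adjusted p = 0.15) and fibronectin, Fn1, at 0.27.

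Markers of the cells that make this matrix showed 0 called genes. The mean log2 signal of 8 expressed peritubular myoid markers was 8.68 to 8.87 in Tex19.1-/- testes and 8.53 to 8.73 in control testes, with Acta2 at -0.07 and Myh11 at 0.27, and Cnn1 not expressed. For 10 Sertoli markers it was 9.99 to 10.18 in Tex19.1-/- and 9.86 to 10.13 in control testes. Of 13 listed Sertoli genes, 11 had a probe under that symbol. Wt1, Gata4 and Clu could not be read, for want of such a probe or of detection. Median log2 changes were 0.17 for myoid, 0.06 for Sertoli, 0.23 for 5 Leydig, 0.04 for 8 endothelial, 0.12 for 7 interstitial fibroblast and 0.21 for 5 macrophage markers. At an unadjusted p under 0.05 (limma), 1 myoid (Mylk, 0.27), 1 Sertoli (Fshr, 0.32), 1 Leydig (Cyp17a1, 0.76) and 2 macrophage markers were higher. Endothelial and interstitial fibroblast markers had 0 higher, and each of these lists had 0 lower. Over all expressed probes, not matched to brightest probes, 5.87% were higher and 7.93% lower. The 6 spermatogonial markers had a median of 0.10 and the 4 erythroid markers 0.10. Pachytene spermatocyte genes were the one cell type list here with called genes, but the lists were chosen with earlier results of these data known. The part of any of these lists in the collagen and laminin values was not tested.

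**Figure D5:**
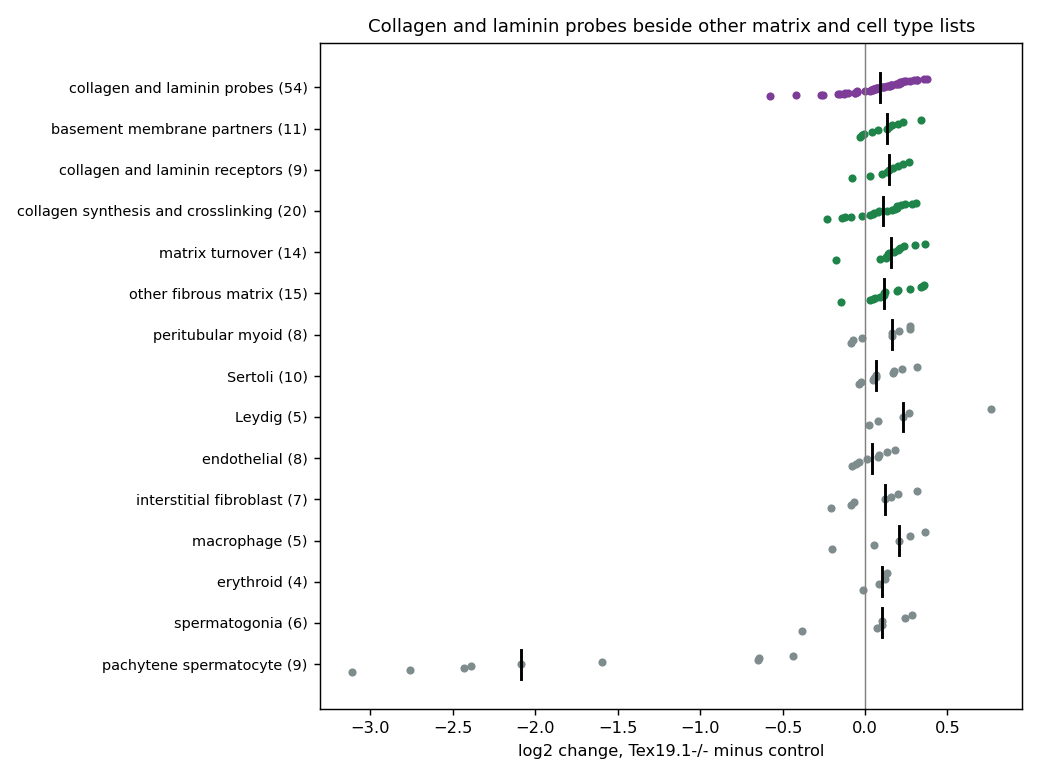
Log2 change (Tex19.1-/- minus control, horizontal axis) of the collagen and laminin probes, of the expressed genes of 5 other matrix lists (green) and of 9 cell type marker lists (grey), 1 point for each probe or gene, with the number of points in parentheses and a bar at the median. The median was 0.09 for collagen and laminin probes and -2.09 for pachytene spermatocyte genes, whose points reach -3.11.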

How the data were processed

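Testis RNA was measured on Illumina Mouse WG-6 v2.0 arrays. The intensity of 45281 probes was deposited by the authors after BeadStudio had subtracted the background (no version is given in the sources used here). With it they deposited detection p-values, and a table of log2 values that had been quantile-normalized in lumi. Signals were shifted to a minimum of 1 in each array, log2-transformed and quantile-normalized again, and differed from the deposited table by at most 0.0026 for values above 3. The log2 signal is relative, so levels of different probes were compared only to choose which probe stands for a gene or a role.

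The 19089 probes detected on 1 or more arrays (detection p under 0.01) were fitted by genotype alone with lmFit and eBayes in limma 3.58.1 (R 4.3.3), which leaves 6 residual degrees of freedom. P-values were adjusted over all of these probes (Benjamini-Hochberg), and probes at or under 0.01 were called. The fit was tested on simulated data with independent noise for each probe and array. That simulation did not cover the normalization, the background or correlation between animals. A probe not detected in a genotype has only a limit there, so its fold sets the mean of the other genotype against a floor, which on each array is the larger of the probe's value and the lowest detected value. The number of arrays limits the precision. Settings tried as alternatives were the normalization, background, detection filter, prior, weights, block and each animal left out.

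Symbols come from the platform annotation, and chromosomes, neighbours and promoter windows from RefSeq (GRCm38.p6). The probes named are the 12 with the largest moderated t, the probe with the highest mean signal of each role, the core chains and any called; the other members are given by count, range or log2 change. Members, roles and lists were chosen with earlier results of these data known. Animals numbered 1 to 4 occur in both genotypes, with nothing in the sources used here on what the number marks. After the genotype means were taken off, same-numbered animals correlated at 0.21, 0.52, 0.10 and 0.23, each above 0.1, which was taken as pairing, from the data alone; the values reported are unpaired, and the fit with the number as a block is an alternative. However, animals 3 and 4 correlated more with another number (0.45 and 0.23). The study's methods speak of wild type and heterozygous controls, but every control is labelled heterozygous. Figures were drawn with matplotlib 3.10.9.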

Additional observations from a re-analysis of the deposited data

Results flagged for a closer look

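The 27 named probes, in each genotype, gave 54 groups of 4 animals that were tested for an animal apart from the rest. Of these groups 2 had one, no more than the share of about 1 in 20 that chance gives. The other member probes were not tested in this way. Both were Tex19.1-/- animal 2. In the Col18a1 probe ILMN_2937542 it stood at 7.37, with the other Tex19.1-/- animals between 6.98 and 7.0. In the Col6a2 probe ILMN_1216661 it stood at 8.19, with the others between 8.59 and 8.66. The same animal had the highest of 8 values for 14 of the 54 probes, against 5 to 12 for the other Tex19.1-/- animals and 1 to 7 for controls.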

How the results depend on the processing

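Of the single probes named, 487 values under the alternatives kept their direction and side of the threshold, 8 lost a call (all Col16a1), 2 gained one (Col9a3) and 12 changed sign. With arrays scaled to a common median, 0 probes were called lower, 1 was lower and 3 were higher at the unadjusted threshold, and the median log2 change of the members was 0.21; the median of all expressed probes was 0.14 there and 0.02 as reported, and 1 probe of all 19089 was called lower. With signals under 1 set to 1, 0 members were called lower and the median was 0.20. With neqc, and with array weights, 2 were called lower (Col16a1 and Col9a3). Without a detection filter 11 of all 110 member probes were higher at the unadjusted threshold (4.12% of all 45281 probes) and the median was 0.027 (0.012 over all), and with detection in every array of a genotype it was 0.15 (0.04 over all). With the replicate block 11 of 54 were higher at the unadjusted threshold (8.75% of all expressed probes, against 5.87% without the block), and no call changed. Leaving out 1 animal gave 0 to 1 called lower and a median of 0.040 (without Tex19.1-/- animal 2) to 0.13 (without Tex19.1-/- animal 3). Signs turned for Col4a1 (-0.042 with array weights; -0.020 to 0.12 with an animal left out), Col1a1 (0.16 with median scaling; -0.22 to 0.016), Col18a1 ILMN_2735184 (-0.048 with array weights; -0.057 to 0.23), Lama2 (-0.11 with array weights; -0.086 to 0.20) and Lamc1 (-0.14 to 0.18). The causes were not tested. Detection limits 12 probes to 1 array each.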
